A study of Mus musculus with 6 samples.

Results

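The Notch group examined here comprised 10 murine genes: the receptors Notch1, Notch2, Notch3 and Notch4, the ligands Dll1, Dll4, Jag1 and Jag2, and the target genes Hey1 and Heyl. Their rows were located by symbol, and all 10 were found among the 48440 genes of the count table. Their RNA was measured in the subcutaneous murine tissues around BEC, cartilage engineered from rabbit BMSCs on a PLGA scaffold and wrapped in an electrospun PCL/collagen membrane. In the 0%-Axitinib group (n = 3) the membrane carried no drug, and in the 3%-Axitinib group (n = 3) it carried 3% by mass of axitinib, an inhibitor of the tyrosine kinases of VEGF receptors. The hosts of both groups were BALB/c nude mice, which lack most T cells, and the implants stayed under the skin for 12 weeks. Controls are labelled as untreated, and they were read as the 0%-Axitinib group because the protocol given for all 6 samples describes membranes with either content of the drug. The comparison asks how the tissues around the implant differed with the drug in the membrane.

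The samples were not alike in depth or in the tissue they held. Reads on genes numbered 17761968, 16716411 and 18005908 in replicates 1, 2 and 3 of the 0%-Axitinib group, and 9225518, 11686084 and 18403795 in those of the 3%-Axitinib group. Unmapped reads made up 5.47%, 3.84% and 14.9% of the 0%-Axitinib libraries and 48.4%, 29.2% and 16.8% of the 3%-Axitinib libraries, so that every 3%-Axitinib library had the larger share. Markers of skeletal muscle (10 genes, most abundant Acta1) took 1.18% and 0.626% of the gene reads of 3%-Axitinib replicates 1 and 3, against at most 0.0126% in the other 4 libraries. Summed expression of 5 keratinocyte markers (most abundant Krt1) was 791 CPM (counts relative to the TMM-scaled library size) in 0%-Axitinib replicate 2 and at most 8.36 CPM elsewhere, and Krt1 was at 0 reads in 4 of the 6 samples. The part of these differences in the results on the Notch genes was not tested. The engineered cartilage was of rabbit cells, and the paper describes samples harvested together with entangled murine tissues. The part of rabbit RNA in the unmapped reads and in the gene counts was not tested. Values are given below without single libraries, without both 3%-Axitinib libraries rich in muscle reads, and with muscle genes left out of TMM.

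Notch receptors are cut after they bind a ligand on a neighbouring cell, and the freed intracellular part enters the nucleus, joins the DNA-binding protein RBPJ and switches on genes such as those of the Hes and Hey families. In blood vessels, Dll4 marks tip cells and arterial endothelium, where it acts on Notch1 and Notch4 to restrain sprouting, and VEGF is known to raise its expression. Notch3 is the main receptor of vascular smooth muscle cells and pericytes, the mural cells, which receive the signal from Jag1 on the endothelium. From this background, Notch4 and Dll4 were counted as endothelial members, Notch3 and Heyl as mural members and the other 6 as broad members.

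In the 3%-Axitinib group, 5 of the 10 genes were lower by the criterion of a fold change of at least 1.5 with an unadjusted p of at most 0.05, namely Notch1, Notch3, Notch4, Dll1 and Dll4, and 0 were higher. All 10 passed the filter on low counts. Of all 15257 tested genes, 11.7% were lower and 9.54% were higher by this criterion. In 7 of the 10 genes all treated samples lay below all controls, and in 0 genes all lay above. These arrangements were seen in 16.6% and 14.7% of all tested genes. The median log2 fold change was -1.08 over the 10 genes and -0.03 over all tested genes. With total counts in place of TMM, the median over all tested genes was -0.16 and that of the 10 genes relative to it was -1.05, which was also the relative value under TMM.

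With Benjamini-Hochberg adjustment across the 15257 genes, edgeR's quasi-likelihood test gave 0 members an adjusted p of at most 0.05, a level that 0.00655% of the tested genes (1 gene) reached. At an adjusted p of at most 0.1, 2 members were lower (Notch4 and Dll4), against 2.83% of all tested genes. An unadjusted p of at most 0.05 was seen for the 5 genes of the criterion, and at an adjusted p of at most 0.05 DESeq2's Wald test called 5 members among 1961 genes and limma-voom 0 members among 2 genes. With no filter on low counts, edgeR's test called 1 member (Notch4, adjusted p = 0.0446) among 15 genes. Without 0%-Axitinib replicate 3, edgeR's test gave 4 members an adjusted p of at most 0.05, among 1252 genes. These p-values measure the spread between samples, since the labels do not name the mouse and a pair of constructs of the same group was placed in each animal. With both muscle-rich 3%-Axitinib libraries (replicates 1 and 3) left out, a choice made after seeing the data, 3 members met the criterion (Notch4, Dll4 and Dll1). That fit rests on 1 sample of the 3%-Axitinib group, assumed to vary like the controls, and in it 608 genes were lower and 558 were higher by the criterion.

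**Figure D1:**
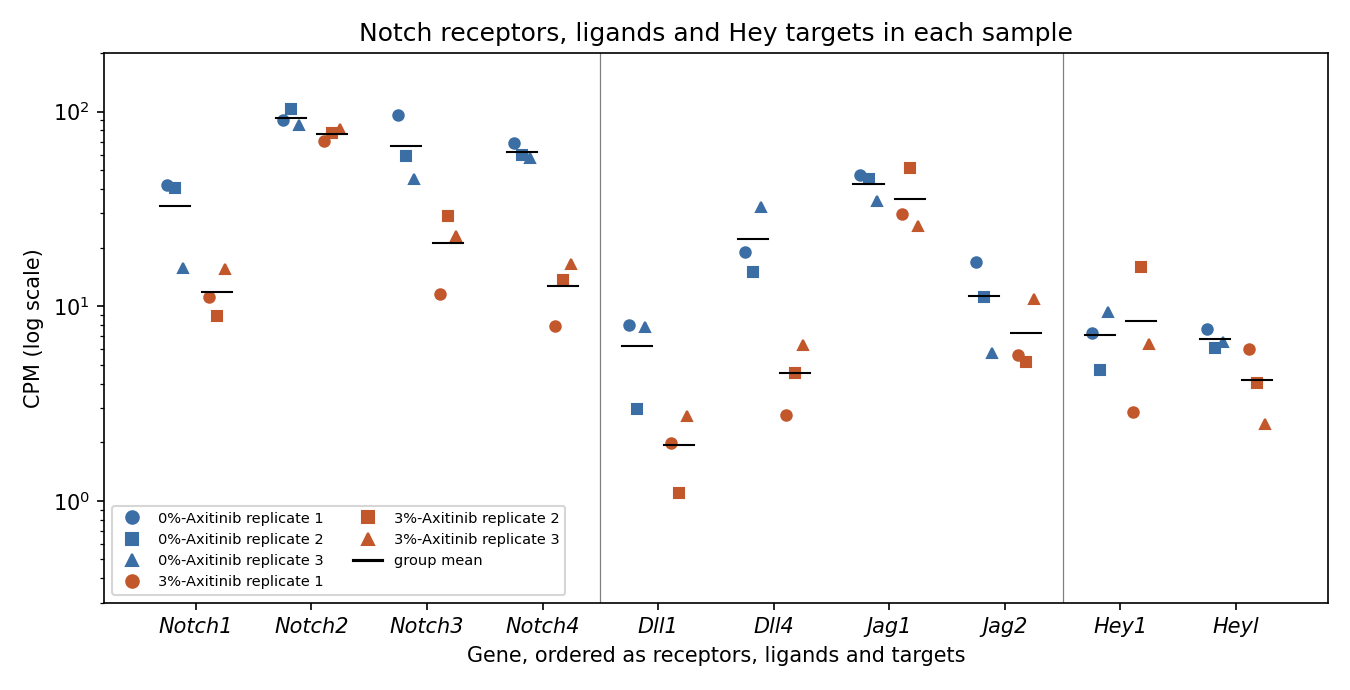
Expression of the 10 Notch genes in each sample, in CPM on a log scale, with genes ordered by role, 3 points per group (shape gives the replicate) and a line at the group mean. Notch4 lay between 58.0 and 69.1 CPM in the 0%-Axitinib samples and between 7.92 and 16.4 CPM in the 3%-Axitinib samples, whereas the groups overlapped for Jag1, Jag2 and Hey1.

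Among the receptors, Notch4 had the largest decrease. This receptor, found mainly in endothelium, lies on chromosome 17 of GRCm38 from 34564268 to 34588503. It was expressed at 69.1, 59.8 and 58.0 CPM in the 0%-Axitinib samples and at 7.92, 13.7 and 16.4 CPM in the 3%-Axitinib samples. All 3 treated samples were far below the lowest control, and the least deep library, 3%-Axitinib replicate 1, was the lowest. The log2 fold change was -2.29 (standard error, SE, 0.29), a 4.90-fold decrease, with an adjusted p of 0.0965 in edgeR's test and between 4.3e-09 and 0.714 over the alternatives, the last of these from the fit with 1 treated sample. In bulk tissue, fewer endothelial cells and less Notch4 RNA per cell cannot be told apart.

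Notch3, the receptor of mural cells, was measured at 96.2, 59.1 and 45.1 CPM in the 0%-Axitinib group and at 11.5, 29.0 and 22.9 CPM in the 3%-Axitinib group. The groups did not overlap, although the controls themselves spread widely, with replicate 1 the highest. Its log2 fold change was -1.66 (SE 0.41, adjusted p = 0.101 in edgeR's quasi-likelihood test). Without the muscle-rich libraries it was -1.22, and the criterion was no longer met. Notch3 (chromosome 17, 32120820 to 32166852) shares 488 of its 8089 exonic bases with the antisense gene Gm17276. Since the strand setting of the counting is not given, it is not known how reads on these bases were counted.

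Notch1, a receptor used by endothelium and many other cell types, stood at 42.2, 40.4 and 15.6 CPM in the 0%-Axitinib samples and at 11.1, 8.93 and 15.5 CPM in the 3%-Axitinib samples. The groups were separated by a narrow margin, since 0%-Axitinib replicate 3 was level with 3%-Axitinib replicate 3. The log2 fold change was -1.46 (SE 0.42, adjusted p = 0.123 in edgeR's test). It was -1.89 without the muscle-rich libraries, where the criterion was not met. Notch1 (chromosome 2, 26457903 to 26516663) overlaps exons of 2 genes on the other strand.

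Notch2, a receptor expressed in many cell types, was at 90.6, 104 and 85.4 CPM in the 0%-Axitinib samples and at 70.8, 77.5 and 81.6 CPM in the 3%-Axitinib samples. The highest treated sample lay just below the lowest control. Its log2 fold change of -0.28 (95% interval from -0.69 to 0.13, adjusted p = 0.355 in edgeR's test) was below the criterion in size. The median log2 fold change of the 4 receptors was -1.56, and 3 of them were lower by the criterion, beside 11.7% of all tested genes.

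The ligands differed among themselves. Dll4, the endothelial ligand, was measured at 19.0, 14.9 and 32.4 CPM in the 0%-Axitinib samples and at 2.75, 4.56 and 6.31 CPM in the 3%-Axitinib samples. The highest treated sample was well below the lowest control, 0%-Axitinib replicate 2. Its log2 fold change was -2.27 (SE 0.43), a 4.83-fold decrease, with an adjusted p of 0.0965 in edgeR's quasi-likelihood test. Dll4 lies on chromosome 2 from 119325784 to 119335962, where exonic bases overlap Gm14207 on the other strand.

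Dll1, a ligand of arterial endothelium and of several other cell types, had few reads. It was counted in 153, 51 and 144 reads in the 0%-Axitinib samples and in 18, 12 and 47 reads in the 3%-Axitinib samples. After scaling, these were 7.99, 2.97 and 7.82 CPM against 1.98, 1.09 and 2.72 CPM. The groups did not overlap, but 0%-Axitinib replicate 2 was close to 3%-Axitinib replicate 3. A log2 fold change of -1.68 (SE 0.54, adjusted p = 0.139 in edgeR's test) met the criterion. Without 0%-Axitinib replicate 1 its log2 fold change was -1.47, and without 3%-Axitinib replicate 2 it was -1.40; in both fits the criterion was not met, so the call rested on those samples. Dll1 lies on chromosome 17 from 15367354 to 15376872 and overlaps A930024N18Rik on the other strand.

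Jag1, the ligand through which endothelium signals to mural cells, had 47.3, 44.9 and 34.9 CPM in the controls, against 29.9, 51.0 and 25.9 CPM with the drug. The groups overlapped, and 3%-Axitinib replicate 2 was the highest of all 6. The log2 fold change was -0.25 (95% interval from -0.94 to 0.44, adjusted p = 0.626 in edgeR's test), and it was 0.26 without the muscle-rich libraries.

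Jag2, a ligand of endothelium and epithelia, was at 17.0, 11.2 and 5.76 CPM in the 0%-Axitinib samples and at 5.61, 5.19 and 10.9 CPM in the 3%-Axitinib samples. The ranges overlapped, since 3%-Axitinib replicate 3 lay above 0%-Axitinib replicate 3. That control was nearly as low as 3%-Axitinib replicates 1 and 2. Its log2 fold change of -0.63 had a 95% interval from -1.79 to 0.52 (adjusted p = 0.450 in edgeR's test). Without 0%-Axitinib replicate 1 it was -0.22, and without 3%-Axitinib replicate 3 it was -1.08. The median over the 4 ligands was -1.16.

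The targets did not meet the criterion. Hey1, a transcriptional repressor induced by Notch in endothelium, was expressed at 7.31, 4.72 and 9.34 CPM in the 0%-Axitinib samples and at 2.86, 15.9 and 6.43 CPM in the 3%-Axitinib samples. Both the lowest and the highest sample belonged to the 3%-Axitinib group. On the log2 scale its fold change was 0.24 (95% interval from -1.22 to 1.70, adjusted p = 0.837 in edgeR's test). Its sign rested on 3%-Axitinib replicate 2, without which it was -0.60. With that replicate as the only treated sample, the muscle-rich libraries left out, it was 1.16.

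Heyl, a related repressor expressed mainly in mural cells, was at 7.62, 6.12 and 6.52 CPM in the 0%-Axitinib samples and at 6.05, 4.01 and 2.49 CPM in the 3%-Axitinib samples. The groups did not overlap, yet 3%-Axitinib replicate 1 was level with 0%-Axitinib replicate 2. On the log2 scale the difference was -0.70 (95% interval from -1.64 to 0.24, adjusted p = 0.319 in edgeR's test). Without 3%-Axitinib replicate 1 it was -1.06, which met the criterion. The median of both targets was -0.23.

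**Figure D2:**
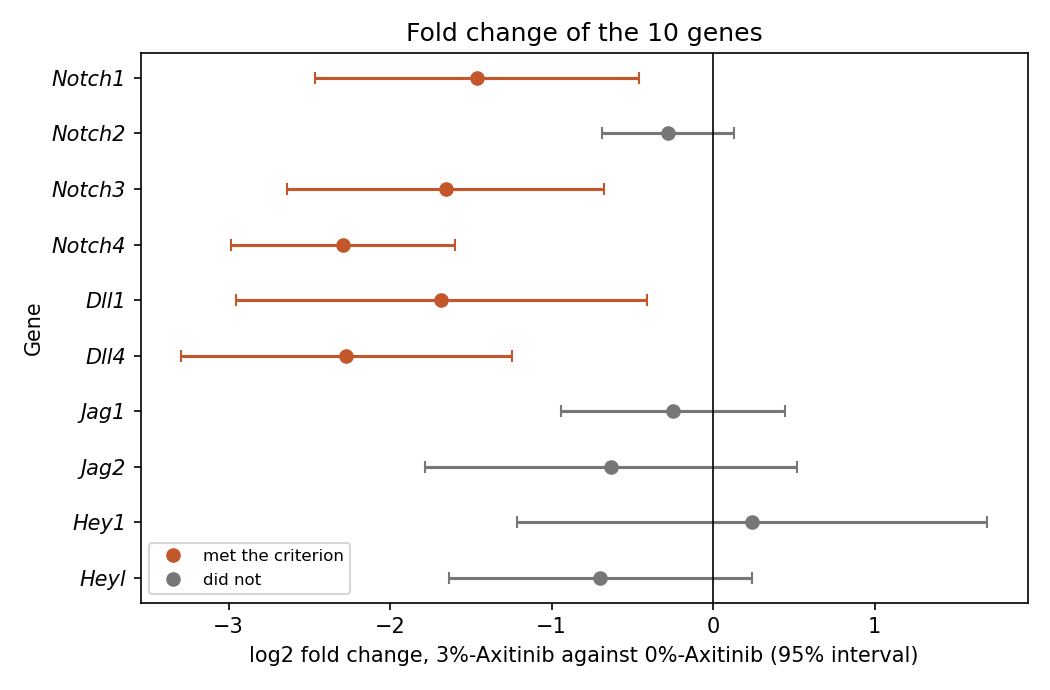
The log2 fold change of each of the 10 genes, 3%-Axitinib against 0%-Axitinib, with its 95% interval from edgeR's quasi-likelihood fit (n = 3 samples per group). Orange points met the criterion, with Notch4 at -2.29 and Dll4 at -2.27 the lowest, and the intervals of the other 5 genes include 0.

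By class, the median log2 fold change was -2.28 for the endothelial members, -1.18 for the mural members and -0.46 for the broad members, beside -0.03 for all tested genes. With single samples left out, the broad median ran from -0.26 (without 0%-Axitinib replicate 1) to -0.70 (without 3%-Axitinib replicate 3). Both endothelial members, 1 of 2 mural members and 2 of 6 broad members were lower by the criterion, beside 11.7% of all tested genes. The difference between classes was not tested, and the broad members ranged from -1.68 (Dll1) to 0.24 (Hey1). Within the classes the samples also differed. The mean log2 CPM of the endothelial members, relative to the mean of the controls, was -2.91, -2.17 and -1.81 in 3%-Axitinib replicates 1, 2 and 3. That of the mural members was -1.30, -0.93 and -1.43, and that of the broad members was -0.98, -0.62 and -0.48. Every one of these values was below those of the controls in its class.

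Of 12 endothelial marker genes, 10 were lower (83.3%) and 0 were higher by the criterion, against 11.7% and 9.54% of all tested genes, with a median log2 fold change of -1.46. Their summed expression was 1141, 802 and 1105 CPM in the controls, against 398, 475 and 547 CPM with the drug. Cdh5, the cadherin of endothelial junctions, was measured at 151, 117 and 144 CPM and at 15.4, 25.8 and 38.7 CPM, a log2 fold change of -2.37 (SE 0.35, adjusted p = 0.0965 in edgeR's test). For both Cdh5 and Notch4, 3%-Axitinib replicate 1 was lowest and replicate 3 the highest of the treated samples. Pecam1, an adhesion molecule of endothelial junctions named after its values were seen, was the most abundant of these markers in the controls, at a mean of 213 CPM, and had a log2 fold change of -1.61 (SE 0.31). Eng, a co-receptor of the TGF-beta family and the most abundant over all 6 samples, had overlapping groups and a log2 fold change of -0.01 (SE 0.26). The part of endothelial content in the lower Notch RNA was not tested.

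Of 11 mural markers, 4 were lower by the criterion (36.4%, beside 11.7% of all tested genes), namely Rgs5, Mcam, Kcnj8 and Abcc9, and 0 were higher, with a median of 0.05. In these 4 the groups did not overlap, whereas the genes of the contractile apparatus Acta2, Myh11, Tagln and Cnn1 had overlapping groups. Groups also overlapped for the markers Cspg4, at a log2 fold change of 0.91 (SE 0.53), and Higd1b, at 0.05 (SE 0.56). The list summed to 951, 550 and 724 CPM in the controls, against 593, 764 and 505 CPM with the drug, with overlapping ranges. Pdgfrb, the receptor that mural cells and fibroblasts use for PDGF and the most abundant gene of the list over all 6 samples, was at 186, 149 and 127 CPM against 116, 210 and 167 CPM. Its log2 fold change was 0.09 (SE 0.28). Rgs5, a pericyte marker and the most abundant gene of the list in the controls, was named after its values were seen and was at 199, 135 and 223 CPM against 19.4, 46.1 and 54.3 CPM.

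Markers of other cell types are given beside the shares of 11.7% lower and 9.54% higher among all tested genes. By the criterion, 7 of 9 tested skeletal muscle markers were higher, with overlapping groups in each; 3%-Axitinib replicate 2 held few of these reads. Of the chondrocyte markers 4 of 5 were higher, and Comp, the most abundant of them, was not among these, at 0.69 (SE 0.67) with overlap. Col9a1, among the 4 and named after its values were seen, passed the filter on low counts only through the 3%-Axitinib samples. It had 0, 8 and 3 reads in the controls and 6, 26 and 53 in the treated samples. Whether rabbit reads added to the counts of these markers was not tested. The criterion called 1 of 4 Schwann cell markers and 1 of 6 fibroblast markers higher. Of the leukocyte markers 3 of 6 were lower, among them Ptprc, a gene of nearly all leukocytes named after its values were seen, at 215, 351 and 363 CPM in the controls and 79.7, 81.7 and 98.1 CPM in the treated samples. Its log2 fold change was -1.84 (SE 0.27, adjusted p = 0.0965 in edgeR's test), and 0%-Axitinib replicates 2 and 3 were alike. Csf1r, a macrophage gene and the most abundant of the list, was at -0.20 (SE 0.33) with overlap. The list as a whole was uneven among the controls, with mean log2 CPM of -0.86, -0.20 and 1.06 relative to their mean in replicates 1, 2 and 3 (-1.71, -1.31 and -1.55 in the treated samples). Cd3e, a T cell gene among these 3 and named after its values were seen, was at 23.3 CPM in 0%-Axitinib replicate 3 and at most 2.10 CPM in every other sample, and that replicate was also the least like the other controls (Spearman's rho of 0.891 and 0.893 across genes, against 0.978 between replicates 1 and 2; genes are not independent replicates). Of the adipocyte markers 2 of 5 were lower, among them Fabp4, the most abundant, at -1.22 (SE 0.25). The other, Lep, passed the filter on low counts only through the 0%-Axitinib samples. Of the lymphatic markers 1 of 3 was lower, while Pdpn, the most abundant, was at 0.72 (SE 0.59) with overlap, and of 2 tested keratinocyte markers 1 was lower, Krt10, a keratin gene named after its values were seen, at -3.93 with overlap; both were highest in 0%-Axitinib replicate 2. Col1a1, the collagen gene that was the most abundant fibroblast marker, was highest in 3%-Axitinib replicate 2, the sample in which Jag1 and Hey1 were also highest. The chondrocyte markers were likewise highest in that sample, at a sum of 1121 CPM against at most 440 CPM in every other sample. The part of these cell types in the Notch results was not tested.

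Apart from the prior count of 2 added before taking logs, which weighs most at low counts, ratios within a sample do not depend on library scaling. In all, 13 were compared between the groups. The log2 ratio of Notch4 to Cdh5 was -1.14 ± 0.17 (SD, n = 3) in the controls and -1.03 ± 0.18 (SD, n = 3) in the treated samples. That of Dll4 to Cdh5 was -2.70 ± 0.48 (SD, n = 3) and -2.50 ± 0.08 (SD, n = 3). Both pairs of groups overlapped. This depended on the reference, since Cdh5 was among the more strongly decreased markers of its list. Relative to the mean log2 CPM of all 12 endothelial markers (Cdh5 included), a reference chosen after seeing the data, Notch4 was lower by a log2 difference of -0.90 and Dll4 by -0.80, both without overlap. Relative to Pecam1, likewise chosen after seeing the data, the differences were -0.75 for Notch4 without overlap and -0.65 for Dll4 with overlap.

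The log2 ratio of Notch3 to Pdgfrb was -0.95, -1.33 and -1.49 in the controls and -3.32, -2.85 and -2.85 in the treated samples, a difference of -1.75 with no overlap. Here too the reference mattered, because Pdgfrb did not meet the criterion while 4 other mural markers were lower. The difference was -1.37 without overlap against the mean of all 11 mural markers, and 0.63 with overlapping groups against Rgs5, both references chosen after seeing the data. For Heyl and Jag1, the differences in log2 ratio to Pdgfrb were -0.83 and -0.37, both with overlapping groups.

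Of the 6 broad members, 3 were compared with Cdh5 (Notch1, Jag2 and Hey1), and their ratios were higher in all treated samples than in all controls. The difference in log2 ratio was 1.09 for Notch1, where the nearest samples were at -1.52 and -1.54, 1.87 for Jag2 and 2.41 for Hey1. These also depended on the reference: against the mean of the 12 endothelial markers the differences were 0.09 for Notch1 and 0.86 for Jag2, both with overlap, and 1.41 for Hey1 without overlap. Against Pecam1 they were 0.23 and 1.01 with overlap and 1.56 without overlap, in the same order. Between ligands, the log2 ratio of Dll4 to Jag1 was -1.31, -1.58 and -0.11 in the 0%-Axitinib samples and -3.38, -3.45 and -2.02 in the 3%-Axitinib samples, a difference of -1.95. The ratio of Notch4 to Notch3 was lower by a log2 difference of -0.66, with 3%-Axitinib replicates 1 and 3 just below 0%-Axitinib replicate 1. In all, 3 ratios were lower, 3 were higher and 7 overlapped between the groups. For the 6 that did not overlap, the exact two-sided permutation test gave p = 0.1, the lower bound of this test with 3 samples per group, and p = 0.217 after Benjamini-Hochberg adjustment over the 13 ratios.

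**Figure D3:**
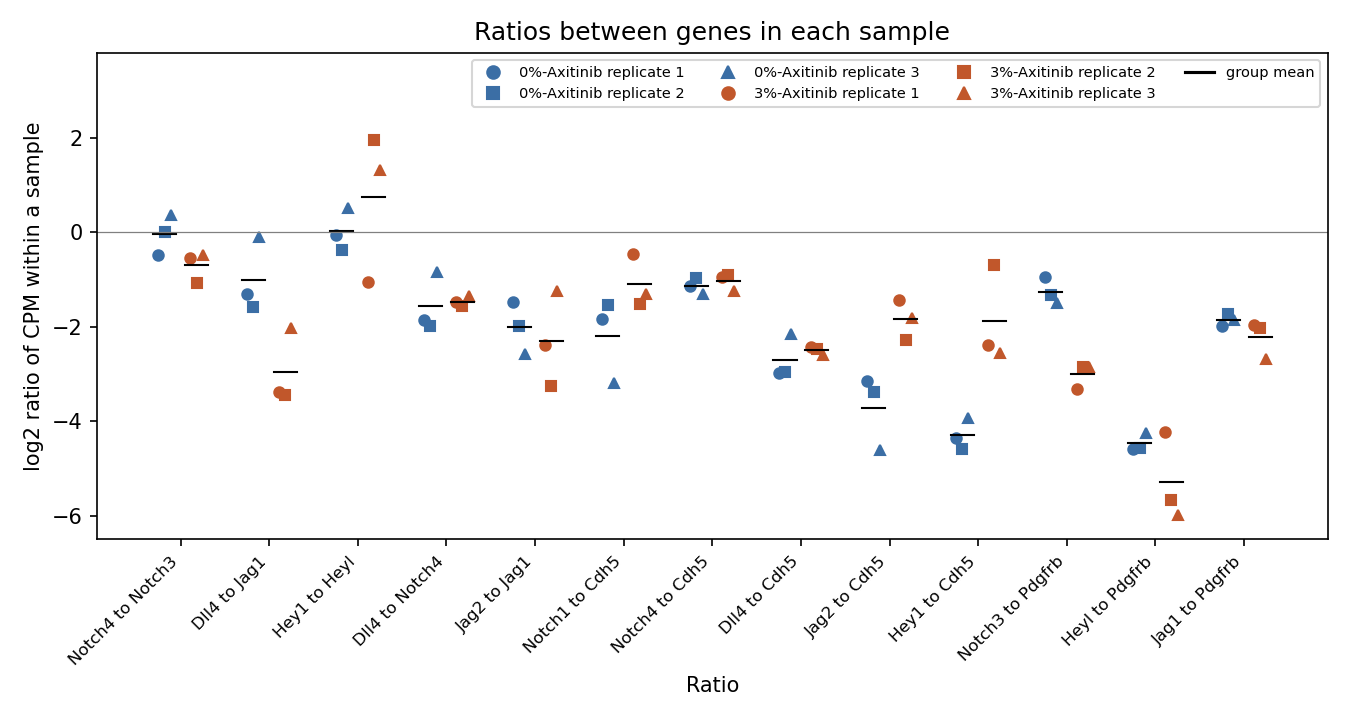
The log2 ratio of CPM between the genes of each of 13 pairs within each sample, with 3 points per group (shape gives the replicate) and a line at the group mean. The ratios of Notch4 and Dll4 to Cdh5 overlap between the groups, and that of Notch3 to Pdgfrb lies between -1.49 and -0.95 in the 0%-Axitinib samples and between -3.32 and -2.85 in the 3%-Axitinib samples.

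Other genes of the pathway were taken from a list of 52, of which 48 were tested. By the criterion, 11 were lower (22.9%, beside 11.7% of all tested genes) and 3 were higher (6.25%, beside 9.54%), with a median log2 fold change of -0.14, beside -0.03 over all tested genes. The 11 include Nrarp, which passed the filter on low counts only through the 0%-Axitinib samples. The adjusted p from edgeR's test was above 0.05 for each of the 48, whereas 14 met the criterion with its unadjusted p.

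Among regulators of the ligands, Neurl3, a ubiquitin ligase of the Neuralized family, was measured at 46.1, 51.0 and 117 CPM in the 0%-Axitinib samples and at 16.2, 15.3 and 26.1 CPM in the 3%-Axitinib samples. All treated samples were below all controls, and the log2 fold change was -1.89 (SE 0.42). Neurl1b, of the same family, had a log2 fold change of -1.62 (SE 0.45) and groups that did not overlap. Mib1, a ubiquitin ligase that drives ligand endocytosis, was at -0.52 (SE 0.22), short of the criterion. Egfl7, a secreted endothelial protein that binds Notch, had overlapping groups and a log2 fold change of -1.20 (SE 0.49). Dlk2, a non-canonical ligand, was counted in 3, 11 and 4 reads in the controls and 8, 18 and 16 reads in the treated samples, a ratio of scaled counts of 3.42 (95% counting interval from 1.93 to 6.31, exact binomial method). Such intervals, and the detection limit of 3 reads used here (0.157 to 0.330 CPM), cover counting error only.

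Of the 5 genes of receptor glycosylation, 1 was lower by the criterion, and of the 10 genes of receptor cleavage, 2 were lower (20% each, beside 11.7% of all tested genes). Lfng, the glycosyltransferase that tunes which ligand a receptor prefers, was at 55.8, 47.2 and 111 CPM in the 0%-Axitinib samples and at 24.0, 36.6 and 28.2 CPM in the 3%-Axitinib samples. The groups did not overlap, and the log2 fold change was -1.27 (SE 0.36). Pofut1, which adds the fucose that Lfng extends, had overlapping groups and a log2 fold change of -0.20. Adam10, the protease that cuts the receptor once a ligand is bound, met the criterion at -0.62 (SE 0.19), and so did Aph1c, a subunit of gamma-secretase, at -1.06 (SE 0.41) with overlapping groups. Furin, which cleaves the receptor on its way to the surface, did not meet it at 0.34 (SE 0.20).

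Of the 12 nuclear genes, 2 were lower (16.7%) and 0 were higher by the criterion, and of the 9 genes of receptor turnover, 2 were lower (22.2%) and 1 was higher (11.1%), against 11.7% lower and 9.54% higher among all tested genes. Ep300, a coactivator of the Notch complex, was at 68.2, 74.2 and 88.6 CPM in the 0%-Axitinib samples and at 45.5, 41.7 and 42.5 CPM in the 3%-Axitinib samples. Its groups were well apart at a log2 fold change of -0.83 (SE 0.17), and Kat2b, another acetyltransferase, was at -0.73 (SE 0.20). Ctbp1, a corepressor and the most abundant of the 12 nuclear genes, was at -0.07. Numbl, a relative of the Notch inhibitor Numb, was measured at 46.5, 32.0 and 24.7 CPM in the controls and at 92.5, 92.0 and 107 CPM in the treated samples. Every treated sample was above every control, with a log2 fold change of 1.5 (SE 0.26). The ubiquitin ligase genes Dtx3l (-0.90) and Itch (-0.74) were lower without overlap, while Dtx3 was at 0.16.

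Of 6 further Notch targets, 4 were tested, and by the criterion 1 was lower (25%) and 1 higher (25%), beside 11.7% of all tested genes lower and 9.54% higher. The lower one, Nrarp, passed the filter on low counts only through the 0%-Axitinib samples. No conclusion about these targets is drawn from that call. Nrarp, a feedback inhibitor of Notch signalling, was counted in 44, 35 and 34 reads in the 0%-Axitinib samples and in 2, 3 and 4 reads in the 3%-Axitinib samples. Most of its exonic bases (2051 of 2582) are shared with Gm38287 on the other strand. Whether reads on these bases were counted for Nrarp or set aside as ambiguous is not known, since the strand setting is not given. At this depth the treated samples were near the detection limit, and the ratio of scaled counts was 0.117 (95% counting interval from 0.0520 to 0.230, exact binomial method). Hes1, a repressor that answers Notch and other signals, was at 22.4, 13.1 and 27.8 CPM in the controls and at 32.3, 47.2 and 29.5 CPM in the treated samples. The groups did not overlap, with a log2 fold change of 0.78 (SE 0.33, unadjusted p = 0.0496 and adjusted p = 0.212 in edgeR's test). Its call as higher was thus at the edge of the criterion. Hes6, the most abundant of these 6 targets, had overlapping groups at 0.45 (SE 0.31).

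Of 11 genes of arterial endothelium and tip cells, 8 were lower (72.7%) and 0 were higher by the criterion, where all tested genes gave 11.7% and 9.54%, and the median log2 fold change was -1.53. Esm1, a secreted tip cell protein, was counted in 120, 143 and 948 reads in the 0%-Axitinib samples and in 11, 4 and 0 reads in the 3%-Axitinib samples. The ratio of scaled counts was 0.0182 (95% counting interval from 0.0101 to 0.0301, exact binomial method), and 0%-Axitinib replicate 3 held most of the control reads. Apln, a peptide ligand of tip cells, was also highest in that sample, at 120 CPM against 21.7 and 16.9 CPM in the other controls and 9.13, 9.48 and 3.71 CPM in the treated samples. Gja5, a gap junction gene of arteries, was at 11.3, 5.72 and 13 CPM against 2.64, 3.37 and 1.62 CPM, and Cxcr4, a chemokine receptor also carried by leukocytes, had a log2 fold change of -1.24 (SE 0.22) without overlap.

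Levels of different genes were compared as CPM per kilobase of exon. In the 0%-Axitinib group, the mean levels in CPM per kilobase were 8.64 for Notch2, 8.26 for Notch3, 7.73 for Notch4, 7.27 for Jag1 and 5.74 for Dll4. These 5 neighbours overlapped in their ranges, so that their order is not resolved, and with the longest transcript as the length Notch4 came first at 9.45. Below a gap came Notch1 (2.30), Hey1 (2.18), Jag2 (1.62), Dll1 (1.48) and Heyl (1.32), again with overlap between neighbours. The gap closed with the longest transcript as the length. Notch1 was then at 4.45 in 0%-Axitinib replicate 1, above Dll4 at 3.98 in 0%-Axitinib replicate 2. In the 3%-Axitinib group, Notch2 (7.11) and Jag1 (6.11) had the highest means, and the other 8 ran from Notch3 at 2.61 to Dll1 at 0.458. Only Hey1, at 4.88 in 3%-Axitinib replicate 2, reached into the range of Jag1. By this measure Notch4 was the third in the order of the controls and the fifth in that of the treated samples, at 1.57. For comparison, Cdh5 was at 32.7 CPM per kilobase in the controls and 6.33 in the treated samples.

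Genes whose pattern over the 6 samples was most like that of a member were ranked by Pearson's r of log2 CPM among 14333 genes. For Notch4 these were Tspan10, Mbd5, Cdh5, Gpr4 and Adgrf5, with r from 0.990 to 0.999. For Dll4 they were Robo4, Pigo, Fam102a, Madd and Kit (r from 0.988 to 0.991), and for Notch3 they were Rasgrp3, Gpr34, Gnb1, Akr1c14 and S1pr1 (r from 0.990 to 0.992). An r above 0.9 was shared with Notch4 by 380 genes, with Dll4 by 452 and with Notch3 by 129. All 6 points of each r share the difference between the groups, and the samples are those used for the fold changes. Of the named genes, Cdh5 and Robo4 are also on the list of endothelial markers. The others were not assigned to a cell type, and the share of endothelial genes among those ranked was not tested.

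Upstream sequence was taken from RefSeq (GRCm38.p6) for 8 of the 10 genes, with 9 starts, as the 250 bases before each RefSeq start; Hey1 and Heyl had no entry. The motif TGGGAA, the core recognised by RBPJ, or its reverse complement was present in 21.6% of all 32851 windows of this length and in 0 of the 9 windows of the Notch genes. The motif GGGCGG (GC box, both strands) was present in 32.7% of all windows and in 5 of the 9, those of Notch1, Notch2, Notch3, Dll4 and Jag2. GGAA, the core shared by ETS factors and part of TGGGAA, was present on either strand in 93.4% of all windows and in 7 of the 9. The windows of Notch4, Dll4 and Notch3 are shown because these genes of the endothelial and mural classes were lower in the 3%-Axitinib group. Capitals mark GGAA and its reverse complement TTCC, of which there were 5 for Notch4 (plus strand, chr17:34564045-34564294), 2 for Dll4 (plus strand, chr2:119325534-119325783) and 0 for Notch3 (minus strand, chr17:32166891-32167140), against a median of 3 over all windows. RefSeq and GENCODE place some starts differently: 6 of the 9 windows reach into the gene as GENCODE bounds it, 3 of them wholly, and the Notch4 window does so with its last 27 bases. A match describes the letters of the window and does not show a bound site.
Notch4: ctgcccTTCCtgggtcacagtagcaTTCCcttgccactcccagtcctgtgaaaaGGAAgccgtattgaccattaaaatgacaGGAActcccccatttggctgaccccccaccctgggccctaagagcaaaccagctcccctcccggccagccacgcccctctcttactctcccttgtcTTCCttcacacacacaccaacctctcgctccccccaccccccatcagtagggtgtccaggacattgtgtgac
Dll4: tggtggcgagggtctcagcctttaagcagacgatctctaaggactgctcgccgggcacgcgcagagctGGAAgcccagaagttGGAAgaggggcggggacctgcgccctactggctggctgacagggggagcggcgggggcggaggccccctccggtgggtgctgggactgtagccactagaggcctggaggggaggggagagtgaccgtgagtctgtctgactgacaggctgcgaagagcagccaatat
Notch3: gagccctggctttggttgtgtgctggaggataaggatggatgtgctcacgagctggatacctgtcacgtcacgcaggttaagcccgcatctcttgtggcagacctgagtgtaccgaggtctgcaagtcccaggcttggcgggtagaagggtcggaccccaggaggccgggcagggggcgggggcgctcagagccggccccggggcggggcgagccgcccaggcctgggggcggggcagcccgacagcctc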

How the data were processed

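Poly(A) RNA of 6 tissue samples was sequenced. The authors filtered reads with fastp, mapped them to mm10 (GRCm38) with STAR (2.5.2b in the submitters' notes) and deposited unnormalized read counts per gene; the annotation release and strand setting are not given in the sources used here. Of 48444 lines, 4 held reads of no gene (unmapped reads were 3.84% to 48.4% of a library) and entered neither library sizes nor tests. Counts were analysed with edgeR 4.0.16 in R 4.3.3 (filterByExpr with minimum count 10 and total 15, TMM, quasi-likelihood test, Benjamini-Hochberg adjustment over 15257 genes), after tests on simulated data. Alternatives used DESeq2 1.42.0, limma 3.58.1, other filters, scalings and thresholds, a replicate block and single samples left out. Ratios used log2 CPM with a prior count of 2. Positions and lengths came from GENCODE for GRCm38. Of each pathway list and the arterial list, up to 3 genes that met the criterion with the largest change and the most abundant gene (over all samples) were named, and of each marker list the most abundant gene, with Cdh5 and Pdgfrb; 1 gene of this rule is not reported here. The members and lists were chosen with earlier results of these data known.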

Additional observations from a re-analysis of the deposited data

How the results depend on the processing

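The 5 genes of the criterion (Notch1, Notch3, Notch4, Dll1 and Dll4) were the same under both other scalings, TMM without muscle genes, both other tests and both other filters. With the replicate block they were also the same 5, but 0 of them reached an adjusted p of 0.05 or less (2 of all genes did). In that fit the adjusted p of Notch4 and Dll4 was 0.183 in edgeR's test, and Hey1 was at a log2 fold change of -0.066. Deviations of same-numbered samples had r of 0.182, -0.115 and -0.174, within the range of differently numbered samples (-0.221 to 0.212). With 3 samples per group, these values cannot decide whether the numbers pair the samples. Hey1 was at -0.014 with limma-voom and from -0.60 to 0.65 with single samples left out, the lowest lacking 3%-Axitinib replicate 2. The cause of these changes of sign was not tested.

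With single samples left out, the members lower by the criterion numbered 4 to 6, all genes lower 1308 to 2148 and higher 1055 to 2274, and other pathway genes lower 9 to 13 and higher 1 to 4. Without both muscle-rich libraries (1 treated sample left, chosen after seeing the data), 608 genes were lower and 558 higher, with 3 members lower, 4 other pathway genes lower and 1 higher. There Jag1 was at 0.26, and the medians were 0.20 for targets, -1.71 for ligands and -0.13 for all genes.

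An adjusted p of at most 0.05 left 0 genes lower and 1 higher, and 0 members and 0 other pathway genes in either direction. An adjusted p of at most 0.1 left 432 genes lower and 333 higher, 2 members lower, and 4 other pathway genes lower and 1 higher. A fold change of at least 2 left 1072 genes lower and 879 higher, and 6 other pathway genes lower. Requiring 10 counts in every sample left 1 other pathway gene higher. The median of all genes was -0.16 with total counts, where 71.2% of calls were lower against 55.1% with TMM, and -0.15 with no filter. With the longest transcript in place of all exons, 5 of 20 mean levels moved beyond 1 SD. With single samples left out, 11 of the 13 ratio differences kept their sign; Jag2 to Jag1 ranged from -0.81 to 0.20 and Dll4 to Notch4 from -0.12 to 0.46. Notch1 to Cdh5 kept its sign between 0.59 and 1.42. At 12 to 47 reads per treated sample, Dll1 was the member with the least depth.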
